A study of Mus musculus with 12 samples.

Results

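The comparison of N-CE with VC at week 1 (1W) rests on 2 of the 12 arrays in the series. N-CE is a cell extract of the cactus Notocactus ottonis, and VC is the vehicle alone, a mixture of propylene glycol, ethanol and water. Male C57BL/6J mice, bought at 8 weeks of age, were shaved on the back and from the next day received 200 µL daily of 10% N-CE or of VC. Whole back skin was collected, and the RNA of 6 mice was pooled, so each group is 1 pool. Both pools were hybridized together, with N-CE in Cy5 and VC in Cy3 on array 1 and with the dyes exchanged on array 2. The 2 arrays were chosen by their titles, and no measured value entered the choice. Another pool, treated with 3% minoxidil (MXD), was compared with the same VC pool on 2 more arrays of the same slide. The N-CE pools of 2W and 3W were each compared with a VC pool of their own week.

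With 1 pool on each side there is no biological replicate and no test across mice. Every log2 value below is log2 of N-CE over VC, given as the mean ± SD over the 2 arrays, and that SD is technical. A probe was called when the P of the scanner software was under 0.01 on both arrays, both arrays gave the same direction, and the mean fold was above 1.5 (up-regulated) or below 0.75 (down-regulated). That P describes spots and not mice. In whole skin, fewer cells of a type and less RNA per cell cannot be told apart. Each gene is represented by 1 probe and counts as measured when that probe was well above background in at least 1 channel.

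Hair is built by cycling follicles. In the growth phase (anagen) matrix cells at the base of the follicle divide, receive melanin from melanocytes, and turn into the hair shaft and the inner root sheath. The shaft is filled with hair keratins embedded in small keratin-associated proteins (Krtap), while the inner root sheath hardens through trichohyalin, a protein that is modified by peptidylarginine deiminases and crosslinked by transglutaminases. In the resting phase (telogen) these products are scarce in skin. Shaving does not remove the follicle.

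At 1W, many follicle and pigment genes lay far below VC in the N-CE pool, and a smaller group that included interferon-induced genes lay above it. Of 41148 probes, 612 were down-regulated (1.49%) and 120 were up-regulated (0.292%). By gene, 507 of 18234 were down-regulated (2.78%) and 99 were up-regulated (0.543%). Counts of calls within gene lists below are read against these shares. Most called genes are in none of the lists: 161 of the 507 down-regulated and 27 of the 99 up-regulated genes are in one. By the plain ratio of signals, 120 of the down-regulated genes fell by more than 4-fold and 312 by more than 2-fold. By the same ratio 16 up-regulated genes passed 2-fold and 0 passed 4-fold. These counts include 42 down-regulated genes and 1 up-regulated gene with 1 group not above background. Their folds are known only as lower bounds, which can be far smaller than the plain ratio. The median over all measured genes was 0.017 ± 0.0029, so the bulk of the genes was centred near 0. Of all measured genes 47% had a mean below 0, the reference for counts of means above or below 0 in the lists. Across the 23924 probes above background in both groups on both arrays, the 2 arrays had a Pearson correlation of 0.603 and a median SD of 0.126. This correlation is across probes that share the same 2 pools. Between 61.1% and 66.5% of the transcript spots of each channel were well above background, and no spot was saturated.

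**Figure D1:**
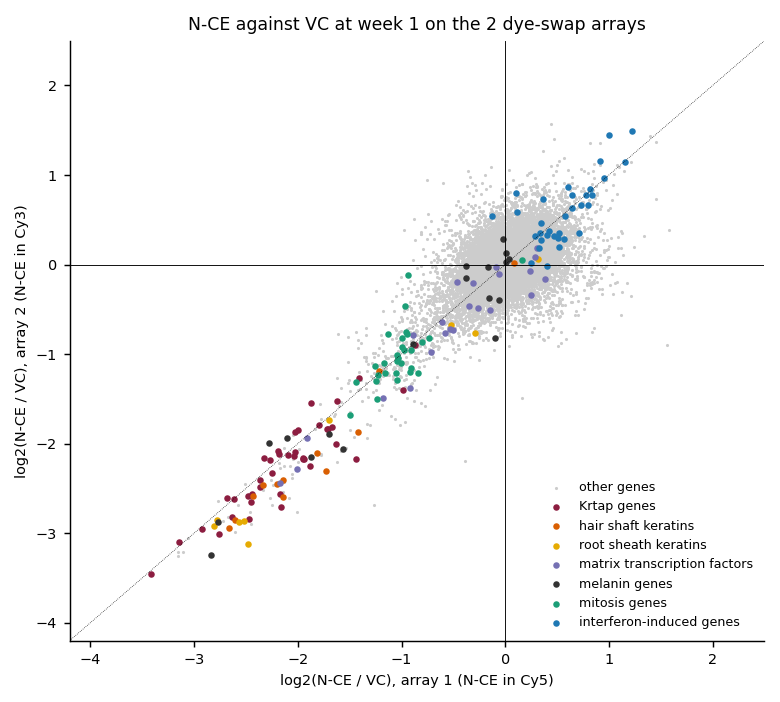
Each point is a gene above background in both groups on both arrays, with its log2 of N-CE over VC on array 1 (x axis) and array 2 (y axis). The Krtap genes and the keratins of shaft and root sheath lie along the diagonal down to Krtap28-10 at -3.44, and the interferon-induced genes lie above 0 on the other side, up to Tgtp1 at 1.35.

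The same VC pool was also on the 2 MXD arrays of 1W, which gives a technical reference. The VC signal of the N-CE arrays over the VC signal of the MXD arrays in the same dye had a median log2 of 0.04 over the 507 down-regulated genes and 0.03 over the 99 up-regulated genes. For the Krtap genes this value was 0.019 and for the melanin genes 0.057. Single genes lay farther from 0: in 4 of the down-regulated and 0 of the up-regulated genes the VC signals of the 2 array pairs differed by more than 1.5-fold. Among genes described below, Tchh had 0.66, Krt71 0.64, Krt33a 0.36 and Tgtp1 -0.38. Defining markers of skin were bright in both groups. Krt14, a keratin of basal epidermis, had signals of 61703 and 64568 in VC and 61869 and 54431 in N-CE, and Lor, the loricrin of the cornified layer, had 105519 and 99548 in VC and 118536 and 99254 in N-CE. Their log2 values were -0.12 ± 0.18 and 0.082 ± 0.12, and neither was called. Krt5 and Dcn have no value here because a spot of each was marked as an outlier on an array.

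Promoters of the called genes are shown first for the groups whose members moved together. Each motif searched is one known for its kind of gene, so a high share can come from the make-up of the list. Such a share is therefore no evidence about the change at 1W. The promoters were read from the RefSeq promoter table on GRCm38.p6, from 250 bases before to 50 bases after the start, and both strands were searched. Of the 10 called melanin genes 7 are in the table, and all 7 have a promoter with CATGTG, the core that the melanocyte factor MITF is known to bind, against 14.2% of all 32851 promoters. Of the 37 called Krtap genes in the table, 30 carry TATAAA, against 13.6% of all promoters. Of the 20 called mitosis genes in the table, 16 carry TTTGAA, the cell cycle homology element, against 17.9%, and 17 carry CCAAT, against 37.4%. Of the 8 called interferon-induced genes in the table, 7 carry the interferon-stimulated response element, searched as GAAA, any 2 bases and GAAA again, against 3.44%. The motifs are not limited to 1 list. TTTGAA is also in 5 of the 6 called hair shaft keratins in the table and in 5 of the 8 called interferon-induced genes, CCAAT and TATAAA are each in 4 of those shaft keratins, and CATGTG is in 15 of the 37 Krtap genes. Some uncalled genes carry the motifs too. Among all measured genes of a list in the table, called ones included, CATGTG is in 8 of 15 melanin genes, 7 of them called. In the same way TTTGAA is in 18 of 24 mitosis genes, 16 of them called. The interferon-stimulated response element is in 17 of 27 interferon-induced genes, 7 of them called. Counts within lists are by gene, while the shares of all promoters are by promoter. These counts describe letters in a window and were not tested. The promoters below are those of the called genes with the largest change in each list that have the motif, which is in capitals.
Oca2, chr7:56239509-56239808, plus strand: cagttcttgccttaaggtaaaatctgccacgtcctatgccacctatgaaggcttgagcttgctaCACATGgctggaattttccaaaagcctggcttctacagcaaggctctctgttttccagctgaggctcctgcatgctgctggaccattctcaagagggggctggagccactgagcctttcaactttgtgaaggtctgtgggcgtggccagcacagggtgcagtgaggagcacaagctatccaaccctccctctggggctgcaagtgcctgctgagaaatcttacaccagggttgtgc
Slc7a11, chr3:50443564-50443863, minus strand: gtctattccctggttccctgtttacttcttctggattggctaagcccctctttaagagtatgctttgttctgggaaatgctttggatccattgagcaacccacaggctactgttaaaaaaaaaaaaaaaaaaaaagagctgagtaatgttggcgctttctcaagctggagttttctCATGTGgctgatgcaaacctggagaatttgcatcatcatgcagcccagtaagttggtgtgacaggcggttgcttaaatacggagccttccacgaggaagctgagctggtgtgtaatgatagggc
Trpm1, chr7:64153585-64153884, plus strand: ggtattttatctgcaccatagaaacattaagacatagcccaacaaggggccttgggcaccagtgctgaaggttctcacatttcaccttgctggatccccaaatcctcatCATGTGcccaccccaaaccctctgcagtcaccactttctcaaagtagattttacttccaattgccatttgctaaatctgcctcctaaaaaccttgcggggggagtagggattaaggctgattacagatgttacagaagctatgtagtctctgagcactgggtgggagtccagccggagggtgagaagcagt
Krtap4-13, chr11:99809847-99810146, minus strand: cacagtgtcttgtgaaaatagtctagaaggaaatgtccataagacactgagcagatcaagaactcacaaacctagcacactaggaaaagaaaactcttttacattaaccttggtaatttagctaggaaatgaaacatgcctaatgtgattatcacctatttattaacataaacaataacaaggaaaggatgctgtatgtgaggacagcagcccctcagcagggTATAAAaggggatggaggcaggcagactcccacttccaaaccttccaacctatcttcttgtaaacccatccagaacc
Krtap4-2, chr11:99635035-99635334, minus strand: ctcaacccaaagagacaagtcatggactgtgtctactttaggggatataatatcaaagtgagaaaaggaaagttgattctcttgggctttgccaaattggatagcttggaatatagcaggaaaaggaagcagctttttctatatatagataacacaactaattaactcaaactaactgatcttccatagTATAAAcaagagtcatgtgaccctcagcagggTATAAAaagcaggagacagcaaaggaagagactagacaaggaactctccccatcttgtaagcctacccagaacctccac
Mki67, chr7:135716330-135716629, minus strand: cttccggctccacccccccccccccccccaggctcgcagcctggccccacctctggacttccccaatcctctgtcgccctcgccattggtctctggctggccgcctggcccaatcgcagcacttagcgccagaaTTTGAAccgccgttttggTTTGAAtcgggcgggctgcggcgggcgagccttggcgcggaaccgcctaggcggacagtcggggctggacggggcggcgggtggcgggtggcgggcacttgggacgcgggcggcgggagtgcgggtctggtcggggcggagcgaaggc
Tgtp1, chr11:48992197-48992496, minus strand: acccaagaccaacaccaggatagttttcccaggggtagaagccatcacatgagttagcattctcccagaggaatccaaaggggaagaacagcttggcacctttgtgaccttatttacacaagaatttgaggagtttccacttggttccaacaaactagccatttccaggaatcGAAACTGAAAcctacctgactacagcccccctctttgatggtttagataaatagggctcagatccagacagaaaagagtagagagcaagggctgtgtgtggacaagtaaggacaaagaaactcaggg
Gbp5, chr3:142496684-142496983, plus strand: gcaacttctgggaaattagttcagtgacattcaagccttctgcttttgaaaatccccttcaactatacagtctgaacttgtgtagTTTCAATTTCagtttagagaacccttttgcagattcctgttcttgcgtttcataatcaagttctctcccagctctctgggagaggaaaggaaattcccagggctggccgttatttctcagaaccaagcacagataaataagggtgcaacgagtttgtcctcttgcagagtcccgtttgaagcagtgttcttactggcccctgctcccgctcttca
Gbp3, chr3:142559794-142560093, plus strand: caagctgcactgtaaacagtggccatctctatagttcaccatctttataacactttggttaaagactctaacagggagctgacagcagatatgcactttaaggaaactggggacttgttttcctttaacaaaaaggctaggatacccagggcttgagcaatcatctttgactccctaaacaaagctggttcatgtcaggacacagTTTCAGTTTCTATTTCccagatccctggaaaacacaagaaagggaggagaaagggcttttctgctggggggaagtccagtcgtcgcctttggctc
Trpm1 has a further listed start, whose promoter also holds CATGTG. In Krtap4-13 and Krtap4-2 the TATAAA closest to the start begins 27 and 29 bases before it. In Oca2, Gbp5 and Gbp3 the motif is on the other strand, so the capitals show its complement, and in Gbp3 a pair of matches overlaps.

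Krtap28-10, a keratin-associated protein gene, had the lowest mean of all called genes above background in both groups. Its processed signals were 1646 and 1627 in VC and 154 and 149 in N-CE. Both arrays therefore showed about the same gap, with a log2 of -3.44 ± 0.023, or 10.8-fold lower in N-CE. Its probe lies at chr1:83038183-83038242 on mm9, the build of the array files, which carry no exon or UTR annotation. The next lowest called genes are its neighbours: Gm7544 at chr1:82951782-82951841 had a log2 of -3.21 ± 0.066, and A030014E15Rik at chr1:82922178-82922237 had -3.18 ± 0.044. In the interval from Krtap28-10 to A030005K14Rik and A030014E15Rik, chosen after the values were seen, 5 of 6 measured genes were down-regulated. The exception was Slc19a3, a thiamine transporter, at 0.039 ± 0.49.

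All 41 measured Krtap genes were down-regulated, of 43 on the array, against 2.78% of all measured genes. Their median was -2.14 ± 0.017, and the values ran from -3.44 to -0.88 for Krtap3-2. In each of them both VC signals were above both N-CE signals. Krtap4-13 was low in the N-CE pool, with 5161 and 5465 in VC and 582 and 637 in N-CE and a log2 of -3.12 ± 0.034. The mildest member, Krtap3-2, still had 1039.8 and 976 in VC and 570.2 and 522 in N-CE. Subfamily 4 ran from -3.12 to -1.57 over 5 genes. Subfamily 19, small proteins rich in glycine and tyrosine, ran from -2.23 to -1.71 over 5 genes. Subfamily 5, rich in cysteine, ran from -2.54 to -1.34 over 4 genes. Neighbouring Krtap genes can be close in sequence, so the signal of a probe may include RNA of a paralog.

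Many of the genes that lie among the Krtap genes were down-regulated with them. On chromosome 16, between the outermost Krtap probes at chr16:88611474-89508568, 25 of 29 measured genes were down-regulated, 6 of them among the 10 with other names. On chromosome 11, at chr11:99411699-99854715, 18 of 19 were down-regulated, among them Gm11559 at -2.63 ± 0.08 and Gm11568 at -2.19 ± 0.08. On chromosome 7, at chr7:149360656-149489787, all 4 measured genes were Krtap genes and fell. The 4 exceptions on chromosome 16 were 2310079G19Rik at -0.22 ± 0.31, 2310057N15Rik at 0.058 ± 0.58, 2310034C09Rik at -1.51 ± 0.77 and the transcript ENSMUST00000062524 at 0.72 ± 1.62. The last of these was dim and its arrays disagreed in sign. The exception on chromosome 11, NAP020108-001, was dim too, at -0.024 ± 0.12.

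Hair shaft keratins fell with the Krtap genes: 11 of 12 measured were down-regulated, with a list median of -2.30 ± 0.20. Krt33a, a shaft keratin of the cortex, had 24636 and 24674 in VC and 3874 and 3213 in N-CE, a log2 of -2.80 ± 0.19. Krt35, which appears early in matrix and cuticle, had 28286 and 25015 in VC and 6134 and 4567 in N-CE, a log2 of -2.33 ± 0.18. Krt85, a further early hair keratin, had 5292 and 5861 in VC and 1592 and 1185 in N-CE, a log2 of -2.02 ± 0.41. In each, both VC signals were above both N-CE signals. Krt84 was the member that was not called, at 0.054 ± 0.046. Krt84 is known mainly from tongue papillae.

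Of the 9 keratins of inner root sheath and companion layer, 6 were down-regulated, and the list median was -2.69 ± 0.26. Krt71, an inner root sheath keratin, was among the brightest genes of the array and had 169953 and 131042 in VC and 24779 and 18129.5 in N-CE, a log2 of -2.82 ± 0.054. Krt25, Krt26, Krt27 and Krt28, its type I partners, ranged from -2.86 to -2.69. Krt75, the companion layer keratin, fell by less, at -1.72 ± 0.031. Krt17, Krt6a and Krt16, which are also made in outer root sheath and in wounded epidermis, were not called, with log2 values of -0.60 ± 0.11, -0.53 ± 0.33 and 0.19 ± 0.18.

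Tchh, trichohyalin, had 53704 and 47627 in VC and 6451 and 5712 in N-CE. Both arrays gave nearly the same fold, a log2 of -3.06 ± 0.0017, or 8.33-fold lower in N-CE, with its probe at chr3:93252853-93252912. Padi3 and Padi1, deiminases that act on trichohyalin, were down-regulated at -2.79 ± 0.10 and -2.10 ± 0.15. S100a3, a calcium-binding protein of the hair cuticle, fell to -2.35 ± 0.37, with 34768 and 35320.5 in VC and 8201 and 5797 in N-CE. Padi4 fell to -1.13 ± 0.18. In all, 5 of 13 measured genes of trichohyalin and its modification were down-regulated, with a median of -0.33 ± 0.25. The transglutaminases were not called: Tgm3 stood at -0.33 ± 0.25 and Tgm1, an enzyme of the epidermal barrier, at -0.18 ± 0.078. Dsg4, the desmoglein of the hair shaft, fell to -2.85 ± 0.79. It was the 1 gene called among 18 measured desmosome genes, a count near the 2.78% of all measured genes.

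**Figure D2:**
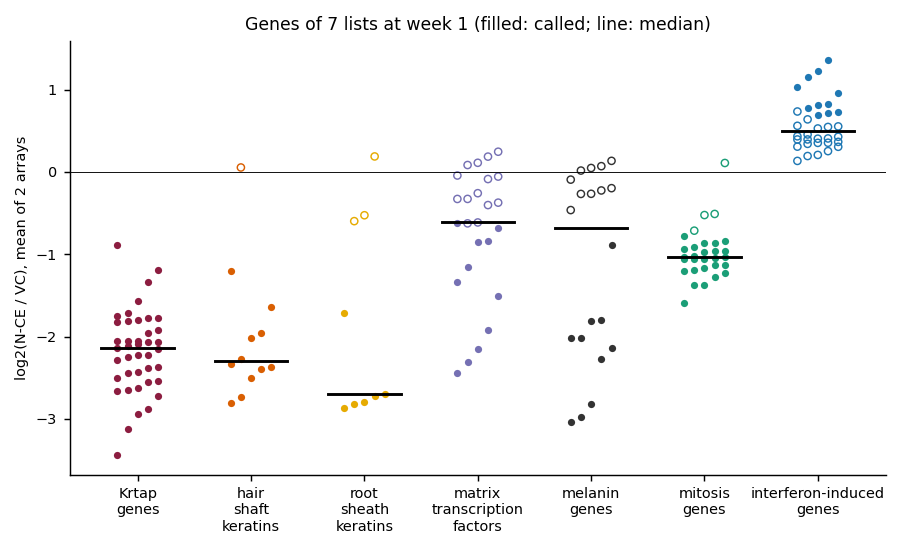
Each point is a measured gene of 1 of 7 lists, plotted as its mean log2 of N-CE over VC at 1W. Filled points were called, open points were not, and the black line is the list median. All 41 Krtap points lie below 0, the melanin genes split into 10 called genes and 10 that lie closer to 0, and all 34 interferon-induced points lie above 0.

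Transcription factors of the hair matrix were lower too, with 11 of 25 measured genes down-regulated and a median of -0.61 ± 0.096. Dlx2, a homeobox gene of the matrix, had 497 and 552 in VC and 111 and 101 in N-CE, a log2 of -2.31 ± 0.19, with its probe at chr2:71381553-71381612. Msx2, which is needed to keep the shaft in growth, had 2463 and 2435 in VC and 610.3 and 502 in N-CE, a log2 of -2.15 ± 0.19. Lef1, the partner of beta-catenin in Wnt signalling, had 1046 and 969 in VC and 278 and 252 in N-CE, a log2 of -1.92 ± 0.022. In these 3 genes no N-CE signal reached a VC signal. Hoxc13, a direct regulator of hair keratin genes, was dim, with 123 and 76.1 in VC and 40.1 and 28.7 in N-CE. It was not above background in every channel, so its log2 of -1.51 ± 0.15 is uncertain. Dlx3, Msx1 and Foxn1 fell to -1.33 ± 0.22, -1.15 ± 0.32 and -0.85 ± 0.19. Dlx4 was not above background in N-CE, and its fold is at least 1.43. Sox21, called at -0.63 ± 0.017, has other probes that gave the opposite sign. Gata3, a factor of the inner root sheath and also of epidermis, was not called, at -0.087 ± 0.034, with 9052 and 9637 in VC and 8669 and 8925 in N-CE.

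A lower bound such as that of Dlx4 is given where 1 group was not well above background on both arrays. It compares the brighter group with the lowest signal that was well above background in the dim group's channel, after a correction (normexp) that adds an offset of 50, so it is smaller than the raw ratio. Of the 507 down-regulated genes, 42 were of this kind, as was 1 of the 99 up-regulated genes, Prg2, the eosinophil major basic protein. It was at least 1.29-fold higher in N-CE.

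Among signalling genes, the called members were in the Hedgehog, Wnt, BMP, Notch, FGF and EGF lists. Of all measured genes 2.78% were down-regulated. Shh, the Hedgehog ligand made by matrix cells in anagen, had 145 and 122 in VC and 26.4 and 15.9 in N-CE, at least 1.79-fold lower in N-CE. Gli1, a target of the pathway, was at least 1.22-fold lower, and Gli2, a transcription factor of the pathway, fell to -0.76 ± 0.059. Of 36 measured Wnt genes 5 were down-regulated: Lef1, the secreted inhibitor Wif1 at -1.24 ± 0.038, the receptor Fzd5 at -1.18 ± 0.52, the ligand Wnt5a at -0.79 ± 0.09 and Nkd2 at -0.64 ± 0.033. No gene of either list was up-regulated. The BMP ligand Bmp8a and the BMP decoy receptor Bambi fell to -1.95 ± 0.25 and -1.26 ± 0.096, and the Notch targets Hes5 and Heyl to -1.72 ± 0.36 and -1.16 ± 0.0011. Hes5 was dim and not above background in every channel, so its value is uncertain. The medians of these lists were -0.36 ± 0.085 for Hedgehog, -0.27 ± 0.017 for Wnt, -0.17 ± 0.13 for BMP and -0.13 ± 0.14 for Notch. Each median was closer to 0 than the called members of its list, and that of Hedgehog was furthest below 0. Fgf5, known for ending anagen, had 124 and 145 in VC and 26.6 and 15.2 in N-CE, at least 1.72-fold lower, and was the 1 gene called of 19 measured in its family. Areg was the 1 called of 14 EGF family genes, at -0.96 ± 0.052. A single call in an FGF or EGF list of this size is near the share of all measured genes. None of 12 measured IGF axis genes was called.

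Genes of follicle stem cells and bulge were called in 7 of 20 cases, all down-regulated, against 2.78% of all measured genes. Their median was -0.19 ± 0.20. Lhx2, a factor of follicle stem cells and early progenitors, had 7445 and 7679 in VC and 3297 and 3239 in N-CE, a log2 of -1.21 ± 0.05. Tbx1 and Sox9 fell to -1.24 ± 0.051 and -0.79 ± 0.03. Of 24 dermal papilla genes 3 were down-regulated, against the same 2.78%. They were Corin, a protease of the papilla, at least 1.5-fold lower, Alx4 at -1.42 ± 0.29, whose other probe had the opposite sign, and Wif1. Ptgds, the prostaglandin D2 synthase, fell to -1.22 ± 0.24, and Ptger3, a prostaglandin E2 receptor, rose to 0.83 ± 0.32.

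Pigment genes divided sharply. Of 20 measured genes of melanin synthesis and the melanosome, 10 were down-regulated and none was up-regulated, with a list median of -0.68 ± 0.16 that falls in the gap between called and uncalled genes. Oca2, a melanosomal transport protein whose loss causes albinism, had 338 and 389 in VC and 47.2 and 41 in N-CE. Both N-CE signals were far below both VC signals, a log2 of -3.04 ± 0.29 or 8.24-fold lower, with its probe at chr7:63791667-63791726. Trpm1, a cation channel of melanocytes, had 1046 and 1137 in VC and 154 and 154 in N-CE, a log2 of -2.82 ± 0.081. Tyrp1 and Dct, enzymes of eumelanin synthesis, fell to -2.02 ± 0.12 and -1.79 ± 0.14, with Dct at 9623 and 11158 in VC and 2967 and 3008 in N-CE. Pmel, which forms the fibrils of the melanosome, fell to -1.81 ± 0.35, and the transporters Slc24a5 and Slc45a2 to -2.14 ± 0.20 and -2.01 ± 0.20. Slc7a11, the cystine transporter, and Tspan10 were not above background in N-CE, and were at least 1.41-fold and 1.4-fold lower. Mlana, a melanosomal protein, moved least of the called genes, at -0.89 ± 0.0016. The uncalled genes are mostly parts of vesicle transport found in many cells, such as Rab27a at 0.13 ± 0.21 and Myo5a at 0.048 ± 0.017. Tyr, the tyrosinase, was not above background in either group with the probe of this array.

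**Figure D3:**
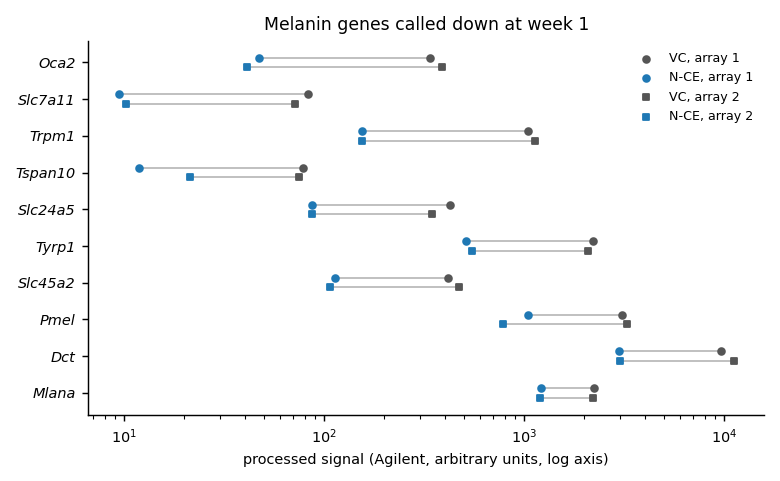
Each row is a melanin gene called down-regulated at 1W, and the x axis (log scale) is the processed signal. Grey symbols are VC and blue symbols N-CE, circles are array 1 and squares array 2. In all 10 genes both N-CE signals lie below both VC signals, from Oca2, with VC signals of 338 and 389, to Mlana, with 2238 and 2215.

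Most regulators of the melanocyte lineage were not called. Sox10, Mitf, Kit and Pax3, which melanocytes share with their precursors, had log2 values of 0.14 ± 0.27, -0.23 ± 0.035, -0.35 ± 0.073 and -0.53 ± 0.13, and none was called. Mitf, the factor behind the CATGTG core above, had 1417 and 1687 in VC and 1227 and 1412 in N-CE. In other cells of skin some of these genes are also active, as Kit is in mast cells and Sox10 in nerve sheath. Of 18 measured regulators 3 were down-regulated: Lef1, Mcoln3 at -0.99 ± 0.29, and Mc1r, the melanocortin receptor, which was near background in N-CE with 56.3 and 80.3 in VC and 19.5 and 6.39 in N-CE and at least 1.32-fold lower.

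Genes of cell division were lower as a block. Of 30 measured mitosis genes 26 were down-regulated, with a median of -1.03 ± 0.041, which is 2.04-fold lower in N-CE. Aurkb, a kinase of chromosome segregation, moved most, with 345 and 349.8 in VC and 122 and 109 in N-CE, a log2 of -1.59 ± 0.13. Birc5, its partner in the chromosomal passenger complex, had 5614 and 6116 in VC and 2398 and 2593 in N-CE, a log2 of -1.23 ± 0.0078. Mki67, the proliferation marker, had 6467 and 5781 in VC and 2706 and 2625 in N-CE, a log2 of -1.20 ± 0.084. The arrays differed little for all 3. The called members ranged from -1.59 to -0.78 for Prc1, a narrower range than that of the Krtap genes. Of 30 measured DNA replication genes 8 were down-regulated, led by Uhrf1 at -1.11 ± 0.065, and 29 had a mean below 0, with a median of -0.45 ± 0.034. Over all genes 47% had a mean below 0.

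Several of the lowest called genes are outside the hair lists. Otop2, a proton channel, had 925 and 916 in VC and 107 and 98.8 in N-CE, a log2 of -3.16 ± 0.076. Fbp1, an enzyme of gluconeogenesis, had 9212 and 11286 in VC and 1513 and 1428 in N-CE, a log2 of -2.79 ± 0.27. Both were separated between the groups on both arrays. Syt4, a synaptotagmin, had 123 and 91.2 in VC and 6.56 and 6.41 in N-CE and was at least 1.87-fold lower. S100a7a, a psoriasin-like calcium-binding protein, was at least 1.88-fold lower and Ggt1 at least 1.58-fold. Krt8 and Krt18, the pair of simple epithelial keratins, fell to -1.07 ± 0.39 and -1.33 ± 0.11.

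Some slow muscle fibre genes were low in N-CE. Myh7, the slow myosin heavy chain, had 326 and 302 in VC and 19.1 and 21 in N-CE, at least 2.74-fold lower, and Myl2 had 144 and 138 in VC and 22.1 and 21.4 in N-CE, at least 1.79-fold lower. Tnni1, at least 1.16-fold lower, and Tnnt1, at -0.76 ± 0.21, both troponin subunits of slow fibres, were the other called genes of 10 measured. Myh7, Myl2 and Tnni1 were not above background in N-CE and counted as measured through VC alone. Of the 6 slow fibre genes above background in both groups Tnnt1 was the 1 called, and their median was -0.21. The bright ones, Myl3 and Tpm3, stood at -0.31 ± 0.056 and -0.11 ± 0.085. Of 27 measured fast and general muscle genes none was called, the median was -0.12 ± 0.11, and Myh4, a fast myosin heavy chain, stood at -0.44 ± 0.079. In the MXD pool of 1W, set against the same VC pool, Myh7 and Myl2 had log2 values of -2.79 ± 1.35 and -2.28 ± 0.63, whereas Tnni1 and Tnnt1 had 0.60 ± 0.24 and 0.34 ± 0.20. Hamp, hepcidin, was also below that VC pool in both treatments, at -2.41 ± 1.20 for N-CE and -3.00 ± 0.38 for MXD. The 2 arrays differed widely for Myh7 with MXD and for Hamp with N-CE, so the size of these folds is uncertain. The comparisons share the VC pool, so the values of N-CE and MXD are not independent. Of 6 measured red cell genes 2 were down-regulated, Ahsp, at least 1.55-fold lower, and Slc4a1, at -1.19 ± 0.13. Hba-a1, an alpha globin and the brightest of them, and Alas2, of haem synthesis, were not called, at -0.15 ± 0.031 and -0.25 ± 0.0039.

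Calls in lists of the epidermis and dermis are read against the 2.78% of all measured genes down-regulated and the 0.543% up-regulated. Of 33 measured cornified envelope genes 2 were called, Sprr1a at -0.92 ± 0.037 and Sprr2h at -0.83 ± 0.19, and the median was 0.16 ± 0.055. In the list of epidermal keratins 2 of 11 were down-regulated, Krt8 and Krt18, and 1 was up-regulated. Krt1 and Krt10, the suprabasal keratins, were not called, at 0.28 ± 0.073 and 0.20 ± 0.34, and Krt2, a keratin of the upper epidermis, was the one that rose, to 0.71 ± 0.11. No gene was called in the lists of fibroblast and collagen genes (23 measured), smooth muscle (12), endothelium (21), adipocytes (21) or cholesterol synthesis (24). With 1 pool a side, no count at an unadjusted p can be given for them. Their means still leaned one way: 20 of 21 adipocyte genes and 19 of 21 endothelial genes were above 0, with medians of 0.24 ± 0.0028 and 0.24 ± 0.027. Adipoq, adiponectin, had 18606 and 18138 in VC and 27474 and 27375 in N-CE, a log2 of 0.58 ± 0.022, just under the threshold. Sebaceous gland genes gave 1 call of 25, Fads2 at -1.03 ± 0.035.

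Among the lists, interferon-induced genes made up the largest called group on the side of up-regulation. Of the 99 up-regulated genes 27 are in any list. Interferons switch on genes that restrict microbes, among them the guanylate-binding proteins (Gbp) and the immunity-related GTPases (Irgm1, Irgm2, Igtp, Iigp1, Tgtp1, Ifi47), which are known to respond strongly to interferon gamma. Of 34 measured genes 11 were up-regulated, against 0.543% of all measured genes, all 34 had a mean above 0, and the median was 0.49 ± 0.036. Tgtp1 had 895 and 837 in VC and 2084 and 2348 in N-CE, a log2 of 1.35 ± 0.19, or 2.56-fold higher. Gbp4 had 211 and 184 in VC and 423 and 502 in N-CE, a log2 of 1.23 ± 0.31, and Gbp5 had 437 and 522 in VC and 976 and 1151 in N-CE, a log2 of 1.15 ± 0.012. In each of them both N-CE signals were above both VC signals. Iigp1, Gbp3, Ifi47, Igtp, Gbp2, Irgm2, Gbp6 and Irgm1 followed, from 1.03 to 0.70. All 11 called genes were GTPases of these families. Of 9 measured genes named Gbp, counted after the values were seen, 8 were up-regulated.

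**Figure D4:**
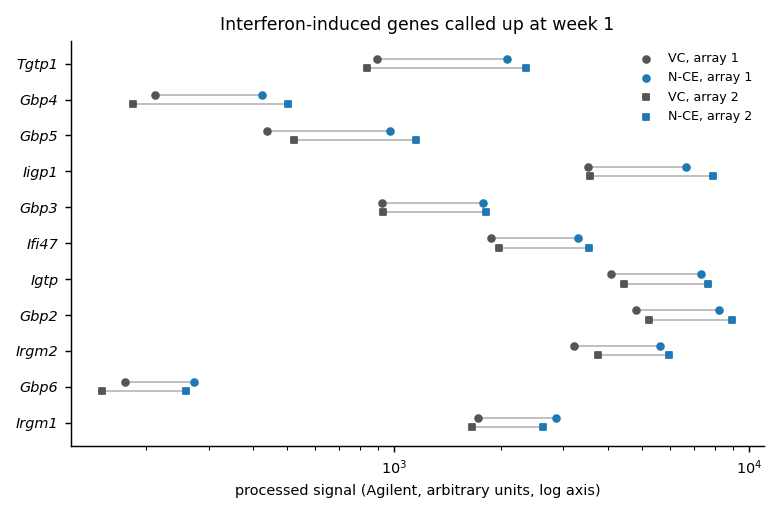
Each row is an interferon-induced gene called up-regulated at 1W, and the x axis (log scale) is the processed signal. Grey symbols are VC and blue symbols N-CE, circles are array 1 and squares array 2. In all 11 genes both N-CE signals lie above both VC signals, by a log2 between 0.70 and 1.35.

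The other interferon-induced genes of the list were not called. Ifit1, Ifit3 and Mx2, antiviral genes known to respond to type I interferon, had log2 values of 0.64 ± 0.012, 0.56 ± 0.027 and 0.73 ± 0.19. Irf7, Isg15 and Oas2 had 0.35 ± 0.34, 0.21 ± 0.48 and 0.13 ± 0.16. The transcription factor Irf1 had 0.39 ± 0.036. Ifng, interferon gamma itself, was dim, with 64.5 and 58 in VC and 43.1 and 44.2 in N-CE, and was not called, at -0.49 ± 0.13, below 0 on both arrays. Mx2 and Ifit1 passed the fold threshold but not the P on both arrays. Ido1, which is not in the list, an enzyme that breaks down tryptophan and is induced by interferon gamma, had 53.3 and 52.7 in VC and 140.3 and 142 in N-CE, a log2 of 1.41 ± 0.025, the highest among called genes above background in both groups on both arrays.

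Of 52 measured chemokines and cytokines 5 were up-regulated and 1 was down-regulated, against 0.543% and 2.78% of all measured genes. Ccl5, which attracts T cells, had 348 and 349 in VC and 722 and 702 in N-CE, a log2 of 1.03 ± 0.03. Cxcl13, Ccl12, Il18 and Ccl11 rose to 0.84 ± 0.062, 0.69 ± 0.044, 0.63 ± 0.0024 and 0.59 ± 0.024. Cxcl14, a chemokine made by epithelium, was the gene that fell, with 16982 and 17950.5 in VC and 8464 and 7913 in N-CE, a log2 of -1.09 ± 0.13. Markers of T cells and NK cells gave 1 call of 27, the NK receptor Klrd1 at 0.67 ± 0.044, with 22 means above 0 and a median of 0.36 ± 0.013. Of 30 macrophage and dendritic cell markers none was called, 29 had a mean above 0, and the median was 0.29 ± 0.019. Over all measured genes 47% had a mean below 0. Cd3e stood at 0.45 ± 0.12 and Cd68 at 0.31 ± 0.061. The part of these cells in the interferon-induced values was not tested. S100a9 and Fpr2, of neutrophils, rose to 1.09 ± 0.025 and 0.95 ± 0.14. These are single genes, and Lcn2, also known from neutrophils, was not called, at 0.16 ± 0.088. A change in neutrophil number was not tested.

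Other up-regulated genes were of mixed kinds, and only some are named here. Fos, an immediate early gene, had 813 and 877 in VC and 2225 and 2273 in N-CE, a log2 of 1.41 ± 0.056. Fosb and Dusp1 rose to 0.82 ± 0.26 and 0.72 ± 0.024. Thus 3 of 22 immediate early genes were called, against 0.543% of all measured genes up-regulated. Mup3, a major urinary protein, had 190.1 and 230.5 in VC and 441 and 509 in N-CE, a log2 of 1.18 ± 0.049, and Mup5 had 0.60 ± 0.038. The Mup genes are near-identical copies, and their probes cannot be told apart with certainty. Scgb1b27, a secretoglobin, was called but dim, with 13 and 23.3 in VC and 56 and 73.1 in N-CE. It was not above background in every channel, so its log2 of 1.88 ± 0.32 is uncertain. Cyp2g1, a cytochrome P450, had 12041 and 11454 in VC and 21863 and 24852 in N-CE, a log2 of 0.99 ± 0.18. Apoc4, Lhx8, Cd163l1, a receptor of gamma delta T cells, Clec1b and Apol10b stood between 1.02 and 1.13.

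The other comparisons are given side by side with N-CE at 1W. In the MXD pool of 1W, against the same VC pool, 1.25% of measured genes were up-regulated and 1.26% down-regulated, and the Krtap genes had a median of 0.79 ± 0.028, with 25 of 41 up-regulated and 0 down-regulated. The N-CE value for that list was -2.14 ± 0.017. The hair shaft keratins had 0.61 ± 0.12 with MXD, the melanin genes 0.26 ± 0.088 and the mitosis genes 0.39 ± 0.041, all on the other side of 0 from N-CE. The interferon-induced genes had -0.052 ± 0.042 with MXD, and 2 of 35 were down-regulated. With MXD, Krtap28-10 and Oca2 were up-regulated, at 0.67 ± 0.077 and 0.93 ± 0.21. Tchh and Dlx2 were not called, at 0.52 ± 0.003 and 0.39 ± 0.18. The difference between treatments was not tested, as each is 1 pool.

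In the N-CE pools of later weeks, each against its own VC pool, the same lists were near 0 or slightly above. At 2W 0.118% of measured genes were up-regulated and 0.0752% down-regulated, and at 3W 0.209% and 0.214%. The Krtap genes had medians of 0.35 ± 0.16 and -0.037 ± 0.061 in these weeks, and the melanin genes 0.39 ± 0.027 and 0.31 ± 0.12. Oca2 had 0.72 ± 0.11 and 0.63 ± 0.35, and Dlx2 0.31 ± 0.074 and 0.29 ± 0.063. Of the 507 genes that were down-regulated at 1W, 1 was down-regulated and 11 were up-regulated at 2W, and 2 and 12 at 3W. The interferon-induced median was -0.017 ± 0.082 at 2W and -0.16 ± 0.058 at 3W. Of the 99 genes up-regulated at 1W, 3 were up-regulated again and 4 were down-regulated at 2W, and 0 and 4 at 3W. Fos was higher at 2W too, with a log2 of 1.66 ± 0.036. The 2 arrays of 2W did not vary together across bright probes, with a Pearson correlation of -0.169, against 0.603 at 1W. Week, slide and VC pool change together and cannot be told apart.

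**Figure D5:**
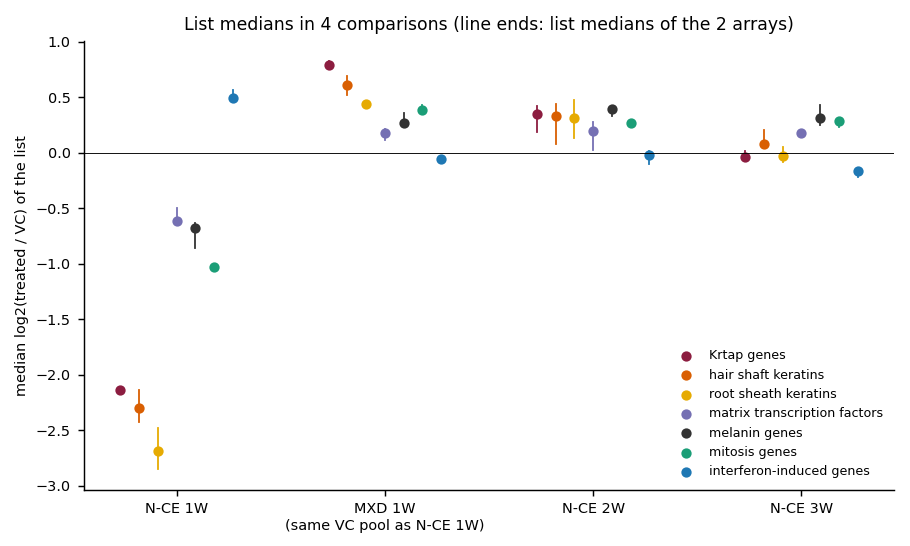
The y axis is the median log2 of treated over VC of each of 7 lists, in 4 comparisons along the x axis. Points are the median of the mean values and lines join the medians of the 2 arrays. At N-CE 1W the Krtap genes sit at -2.14 and the interferon-induced genes at 0.49, while in the other 3 comparisons every list lies between -0.16 and 0.79.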

How the data were processed

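RNA of whole back skin was measured on 2-colour Agilent 4x44K mouse arrays. The authors deposited, per spot, the Cy3 and Cy5 signal intensity, both raw and processed (background-subtracted and dye-normalized by LOWESS), the log10 ratio of Cy5 over Cy3, and a p-value from the software's error model. The file headers name Agilent Feature Extraction 12.0.3.1 and the labels name 11.0.1.1. The deposited series table holds the log10 ratio of the processed intensities and was found equal to it on both arrays within 5e-09. Probe positions are on mm9 per the file headers.

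Neither control spots nor spots with an outlier mark were used. The log2 of processed signals was turned to N-CE over VC by the dye in the sample titles, and spots of a probe were averaged. A gene, named as in the files, was represented by its brightest probe, judged by mean processed signal over all 12 arrays. Of 41174 probes, 27816 carry an accession found in the RefSeq table, which was used for this check only. Of 171 called genes with more than 1 measured probe, all probes of 163 had the same sign. There were 46 gene lists. A list median is over measured genes, with the SD taken between the median of array 1 and that of array 2. A gene bright in 1 group only could enter a list through that group, so lists were also summarised over genes above background in both groups. Lower bounds and an alternative used limma 3.58.1 (normexp with an offset of 50, loess, Aquantile) in R 4.3.3. Other steps used Python 3.11.15. The number of arrays limits the precision.

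The members and lists were chosen with earlier results of these data known. The text names 4 lead genes, the 15 highest and 15 lowest called genes above background in both groups, the 10 with the largest lower bound in each direction, and up to 4 called or defining genes per list, and some genes beyond these were named after their values were seen. Some genes that the rule gives are not reported here or are in the counts only. A grouping of keratin-associated proteins by amino acid composition was not run, as no protein table was used here, and subfamily numbers were used instead. The call rule was tested on simulated data. Alternatives covered the P criterion, fold thresholds, dim probes, outlier spots, spots in place of probes, normexp, each array alone, the deposited ratios, arithmetic means and all probes of a gene.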

Additional observations from a re-analysis of the deposited data

Results flagged for a closer look

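Many lists had a median on one side of 0 on both arrays of N-CE at 1W and on the other side on both arrays of a later week: 29 of 46 lists at 2W and 31 at 3W. The difference between weeks was not tested. No reference share for such a change of side was computed, and many of the lists counted had few called members at 1W. The 2 arrays of 2W had a Pearson correlation of -0.169 across bright probes. At 2W 0.118% of measured genes were up-regulated and 0.0752% down-regulated. Values are given for lists with at least 25% of measured members called at 1W. Lists of follicle, pigment and division genes, below 0 at 1W, were above 0 at 2W, but only some of them at 3W. The Krtap genes, the keratins of inner root sheath and companion layer, and trichohyalin and its modification did not change side on both arrays of 3W. At 2W the medians were 0.33 for the hair shaft keratins, 0.31 for the keratins of inner root sheath and companion layer, 0.35 for the Krtap genes, 0.18 for trichohyalin and its modification, 0.20 for the hair matrix transcription factors, 0.10 for the stem cell and bulge genes, 0.15 for the Hedgehog genes, 0.39 for the melanin genes, 0.27 for the mitosis genes, 0.19 for the DNA replication genes and 0.15 for the erythrocyte markers. At 3W they were 0.075 for the hair shaft keratins, 0.18 for the matrix transcription factors, 0.17 for the stem cell and bulge genes, 0.22 for the Hedgehog genes, 0.31 for the melanin genes, 0.29 for the mitosis genes and 0.25 for the DNA replication genes. In the opposite direction, the interferon-induced genes had a median of -0.16 at 3W, and the secretoglobins and lipocalins -0.20 at 2W and -0.11 at 3W. The erythrocyte markers were split at 2W. Slc4a1 was up-regulated, at 0.59 ± 0.013, and Ahsp, which was not above background in N-CE at 1W, had 0.34 ± 0.12. Hba-a1, the brightest of them, was down-regulated at 2W and 3W, at -0.63 ± 0.018 and -0.76 ± 0.031, and Alas2 had -0.25 ± 0.19 at 2W. Week, slide and pools change together and cannot be told apart.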

How the results depend on the processing

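With normexp and loess all 199 named or listed called genes kept their direction, and 164 of them passed 1.5-fold, against 198 with the deposited ratios. Leaving out an array could not turn a call, since a call asked for the same direction on both. Counts of calls depended on the rule. Without the P criterion 2807 probes were down-regulated and 1648 up-regulated, at a symmetric 2-fold 374 and 20, and with 1 array alone between 1009 and 1131 down and between 519 and 531 up, since a single array asks for no agreement. With normexp and loess 524 were down-regulated and 46 up-regulated, against 612 and 120. Normexp adds an offset and shrinks dim genes, such as Slc7a11 from -2.97 to -0.50 and Mc1r from -2.59 to -0.41. The melanin median of -0.68 became -0.37 with normexp, -0.89 over all probes of a gene, -0.37 over genes above background in both groups, and -0.86 to -0.64 with 1 array alone. The interferon-induced median of 0.49 became 0.33 with normexp, 0.45 over genes above background in both groups, and 0.52 to 0.57 with 1 array. The Krtap median of -2.14 became -2.01 with normexp, -2.11 over all probes, and -2.17 to -2.14 with 1 array. The mitosis median of -1.03 became -0.88 with normexp. The hair shaft keratin median moved by less than its SD under all alternatives run. The cause of these shifts beyond the offset was not tested. No paired analysis was possible because each group is 1 pool. The grouping of Krtap genes by composition was not run. Signals near background limit Shh, Fgf5, Mc1r, Slc7a11 and the other genes given as lower bounds.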

Other observations

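Antigen presentation genes were above VC in the N-CE pool without reaching the threshold: all 20 measured genes had a mean above 0, with a median of 0.19 ± 0.016, and none was called. Mast cell markers had a median of 0.36 ± 0.15, with 10 of 11 above 0. For these 2 lists the VC signals of the N-CE arrays over those of the MXD arrays had medians of -0.024 and 0.14. Of 17 measured circadian clock genes Nfil3 was called, down-regulated at -0.80 ± 0.21. None of 23 hypoxia response genes, 23 matrix proteases and inhibitors, 15 chemokine receptors or 9 B cell and plasma cell markers was called. In iron handling, Slc40a1, the iron exporter ferroportin, fell to -0.89 ± 0.11 and Cybrd1, a ferric reductase, to -0.60 ± 0.026.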
